A study of Homo sapiens with 18 samples.

Results

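The 8 genes described here, SOX9, HNF4A, GATA6, PDX1, FOXA1, FOXA2, KLF5 and ONECUT2, encode transcription factors that specify the pancreas or maintain its ductal epithelium. They were taken by name, matched to their Ensembl identifiers and followed through both assays of the study, as 8 of the 58302 genes in the expression table. The cells were PANC-1, an established line from a human pancreatic ductal adenocarcinoma (PDAC), and every culture carried a lentiviral short hairpin RNA (shRNA) vector. The control group (shCtrl) held a control shRNA vector, labelled as empty, and the NAT10-knockdown group (shNAT10, NAT10-KD) held an shRNA against NAT10, the acetyltransferase that writes N4-acetylcytidine (ac4C) on RNA. RNA-seq had 3 libraries per group. For acRIP-seq, in which RNA fragments are pulled down with an antibody against ac4C, each group had 3 immunoprecipitated (IP) and 3 input libraries, which the authors condensed into 1 peak list per group. The sources do not say whether libraries of a group came from separate cultures or clones, so the p-values measure the spread between these libraries, which may be technical.

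Pancreatic identity is set up by a cascade of such factors. FOXA1 and FOXA2 are forkhead pioneer factors that open chromatin in endoderm, GATA6 and GATA4 act with them in the foregut, and PDX1 marks and maintains the pancreatic bud. SOX9 keeps progenitor cells and later the ducts, whereas HNF4A and the ONECUT factors belong to the endodermal circuit shared with liver, and KLF5 is a Krüppel-like factor of proliferating epithelia. In PDAC, GATA6 and HNF4A are known for their high expression in classical tumors and their loss in basal-like tumors.

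The reads behind the values, recovered from the steps between them, numbered from 15831720 to 23521762 per library. NAT10 itself was measured at 31.6, 27.7 and 28.6 FPKM (fragments per kilobase of transcript, scaled to the reads of the library) in shCtrl and at 7.92, 8.43 and 7.90 FPKM in shNAT10, a log2 fold change of -1.84 ± 0.076 (SE; limma, adjusted p = 3.9e-05). The library shCtrl replicate 2 stood apart, with a root mean square distance from the other libraries of its group of 0.465 on the log2 scale, where the other 5 libraries lay between 0.288 and 0.410. Across the tested genes, its deviations from the mean correlated with transcript length at r = -0.234, against -0.0643 to 0.141 in the others. The fit was repeated without it, and for FOXA2 and SOX9 these values are given. For TEAD1, ONECUT2 and the ductal marker sum, where this library held an extreme value, they are not given. Over all 12982 tested genes, those with at least 1 FPKM in at least 3 libraries, 21.2% were called lower and 20.8% higher in shNAT10 at an adjusted p under 0.05, and 3.57% and 2.91% when the log2 fold change also had to pass 1. All 3 shNAT10 libraries lay below all 3 shCtrl libraries for 28.6% of these genes and above them for 27.9%.

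SOX9 and FOXA2 dominated the 8 factors in PANC-1 cells. Together they made up between 90.8% and 92.5% of the summed FPKM of the 8 genes in every library. In shCtrl cells the order by mean FPKM was SOX9 at 38.3, FOXA2 at 17.8, GATA6 at 2.84, FOXA1 at 1.28, ONECUT2 at 0.540, KLF5 at 0.477, PDX1 at 0.185 and HNF4A at 0.0125. Among all protein-coding genes, SOX9 stood above 92.4% and FOXA2 above 82.9%, but PDX1 above 36.6% and HNF4A above 24.9%. The ranges of neighbours in this order did not overlap except between ONECUT2 and KLF5. In shNAT10 cells GATA6 and FOXA1 exchanged places, as did ONECUT2 and KLF5, and the ranges overlapped between PDX1 and HNF4A only. The line carried ample SOX9 and FOXA2 transcripts, little GATA6 and FOXA1, and almost no PDX1 or HNF4A.

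**Figure D1:**
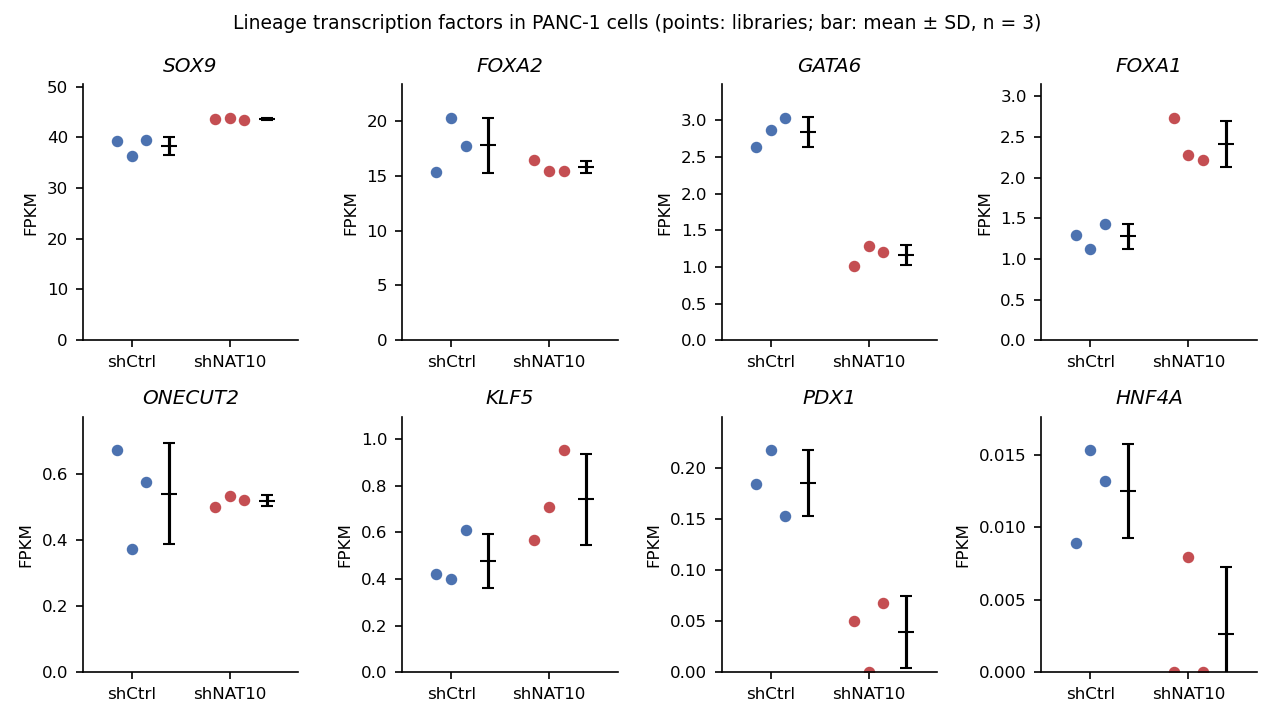
FPKM of each factor (y axis, linear, own scale per panel) in the 3 shCtrl and the 3 shNAT10 RNA-seq libraries (points, replicates 1 to 3 from left to right), with the mean ± SD beside them. The groups of GATA6, PDX1 and HNF4A lie apart with shNAT10 below, those of SOX9 and FOXA1 lie apart with shNAT10 above, and those of FOXA2, ONECUT2 and KLF5 overlap. HNF4A rests on 0 to 2 reads per library.

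Of the 8 factors, 4 passed the filter for the test, each with at least 1 FPKM in all 6 libraries. Among these 4, GATA6 was called lower, SOX9 and FOXA1 were called higher, and FOXA2 was not called. GATA6 was the only member whose log2 fold change also passed 1. The median log2 fold change of the 4 was 0.012, against -0.011 over all tested genes. With calls in either direction being frequent in this comparison, these shares are not a result about the group, and each gene is described by its own values. With 3 libraries against 3, the exact two-sided permutation test of a single gene cannot give a p below 0.1.

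GATA6, a zinc finger factor of foregut endoderm and of classical PDAC, fell. Its FPKM was 2.63, 2.87 and 3.03 in control cells and 1.01, 1.28 and 1.20 in NAT10-KD cells. The highest shNAT10 library was below the lowest shCtrl library by more than the range of either group. The mean went from 2.84 ± 0.203 (SD, n = 3) to 1.16 ± 0.143, a ratio of 0.409, and the log2 fold change was -1.23 ± 0.15 (SE; limma, adjusted p = 0.00091, exact permutation p = 0.1). The values rest on 172, 219 and 269 reads in shCtrl and 60, 94 and 80 reads in shNAT10. The gene lies at chr18:22169443-22202528 on the plus strand (GRCh38), and 14.2% of its exonic bases are shared with antisense transcripts, among them GATA6-AS1, while the counting is not stated to use strand. GATA6-AS1 was listed at 0.242 ± 0.078 FPKM in shCtrl and 0.323 ± 0.17 FPKM in shNAT10, and the groups overlapped. In every alternative fit in which GATA6 could be tested it stayed called, with log2 fold changes from -1.29 to -0.83. The value nearest to 0 came from the pseudocount of 1. In these bulk libraries, fewer cells that express the gene and less RNA per cell cannot be told apart.

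FOXA1, the forkhead pioneer factor with the lower level of the pair in this line, rose. It was measured at 1.29, 1.12 and 1.43 FPKM in shCtrl and at 2.74, 2.28 and 2.21 FPKM in shNAT10, so that every shNAT10 library was above every shCtrl library. The mean rose from 1.28 ± 0.152 (SD, n = 3) to 2.41 ± 0.284, a ratio of 1.88. The log2 fold change was 0.86 ± 0.16 (SE; limma, adjusted p = 0.0049, exact permutation p = 0.1), and it ranged from 0.58 to 0.97 in the alternatives, with a call in each. The ratio of GATA6 to FOXA1 within a library, both per length, was 2.04, 2.56 and 2.13 in shCtrl and 0.367, 0.562 and 0.542 in shNAT10. GATA6 thus exceeded FOXA1 in all 3 control libraries and was below it in all 3 NAT10-KD libraries. FOXA1 lies at chr14:37589984-37596059 on the minus strand.

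FOXA2, the more abundant pioneer factor, did not pass the test. Its FPKM was 15.3, 20.3 and 17.7 in shCtrl and 16.4, 15.5 and 15.5 in shNAT10. The control libraries spanned the whole range of the NAT10-KD libraries, and the highest value belonged to shCtrl replicate 2. The log2 fold change was -0.16 ± 0.11 (SE), with a 95% confidence interval from -0.42 to 0.091 (limma, adjusted p = 0.26, exact permutation p = 0.4). Without shCtrl replicate 1 it was -0.27 and was called (adjusted p = 0.046), and without shCtrl replicate 2 it was -0.063 (adjusted p = 0.52). FOXA2 lies at chr20:22581005-22585455 on the minus strand. FOXA1 made up 6.79% of the summed FPKM of FOXA1, FOXA2 and FOXA3 in shCtrl and 13.2% in shNAT10, and FOXA2 made up 92.8% and 86.3%.

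SOX9, the HMG box factor of ducts and progenitors, was the most abundant of the 8 and moved least among the called ones. Its FPKM was 39.2, 36.3 and 39.5 in shCtrl and 43.5, 43.8 and 43.3 in shNAT10. All NAT10-KD libraries were above all control libraries, and they differed from each other by little (SD 0.253, against 1.78 in shCtrl). The ratio of the means was 1.14 and the log2 fold change 0.19 ± 0.063 (SE; limma, adjusted p = 0.0498, exact permutation p = 0.1). This call sat at the threshold. It was lost in 10 of 17 alternatives, with adjusted p-values up to 0.16, including the fit without the filter (adjusted p = 0.072), quantile normalization (adjusted p = 0.073) and each left-out library other than shCtrl replicate 2, without which it was 0.15 with an adjusted p of 0.025. SOX9 lies at chr17:72121020-72126420 on the plus strand. Dividing by the summed FPKM of the library (TPM) moved the median of all tested genes to 0.095, and SOX9 to 0.29, GATA6 to -1.12, FOXA1 to 0.97 and FOXA2 to -0.055. Relative to that median none of the 4 changed direction.

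**Figure D2:**
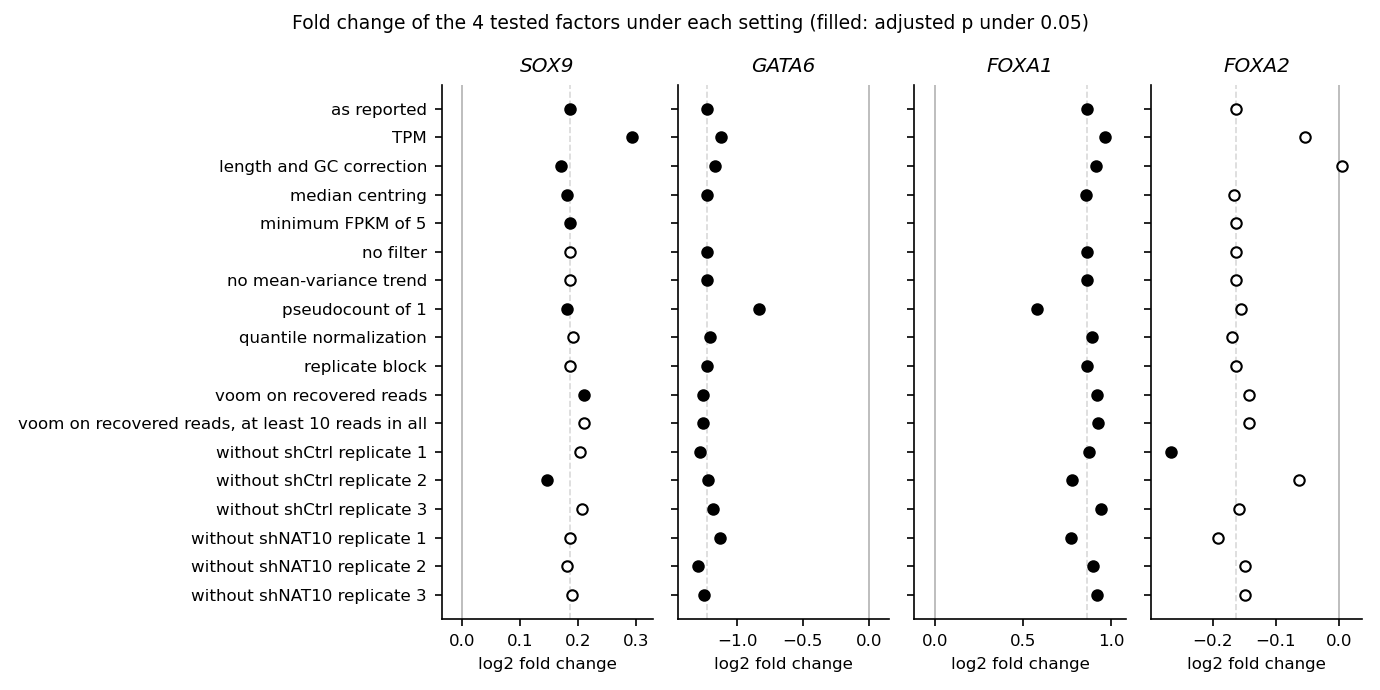
log2 fold change of shNAT10 over shCtrl (x axis, own scale per panel) of the 4 tested factors under each setting (rows), with filled points at an adjusted p under 0.05 and open points above it. GATA6 and FOXA1 are filled in every row that has a point, SOX9 loses its fill in 10 rows at nearly the same fold change, and FOXA2 is filled in 1 row only. GATA6 and FOXA1 have no point at the minimum FPKM of 5.

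The other 4 factors were under 1 FPKM in all 6 libraries and were not part of the test. They are described by FPKM and by reads, and the intervals given for them cover counting error only. PDX1, the homeobox factor of the pancreatic bud and of beta cells, was listed at 0.184, 0.217 and 0.153 FPKM in shCtrl and at 0.0505, 0 and 0.0678 FPKM in shNAT10. These values are 28 reads over the 3 control libraries and 5 over the 3 NAT10-KD libraries, and the groups did not overlap. Per depth the ratio of shNAT10 to shCtrl was 0.206, with a 95% exact binomial interval from 0.0621 to 0.541. Fitted with limma without the filter, PDX1 was not called (log2 fold change -1.06, adjusted p = 0.058), whereas limma voom on all genes with at least 10 reads, a fit chosen after seeing the data, called it (-2.41 ± 0.74, adjusted p = 0.033). PDX1 lies at chr13:27920020-27926231.

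HNF4A, the nuclear receptor of hepatic, intestinal and early pancreatic endoderm, was near absent. It had 1, 2 and 2 reads in control cells and 0, 1 and 0 reads in NAT10-KD cells, at a mean of 0.0125 and 0.00266 FPKM. At this depth no difference was detectable, since the 95% interval of the ratio of 0.231 ran from 0.00488 to 2.06. Its paralog HNF4G was likewise under 0.1 FPKM in all libraries, and the summed FPKM of both genes was between 0.0226 and 0.0536 in shCtrl and between 0 and 0.0134 in shNAT10. HNF4A lies at chr20:44355700-44434596.

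KLF5, which drives epithelial proliferation, was measured at 0.420, 0.402 and 0.608 FPKM in shCtrl and at 0.567, 0.707 and 0.952 FPKM in shNAT10. The lowest NAT10-KD library fell inside the control range. The reads were 106 against 141, a ratio per depth of 1.54 (95% interval 1.18 to 1.99), but limma without the filter gave an adjusted p of 0.31 and voom on the reads 0.097. KLF5 lies at chr13:73054976-73077542. ONECUT2, which acts beside HNF6 in the liver and pancreas, was at 0.672, 0.374 and 0.575 FPKM in shCtrl and at 0.502, 0.533 and 0.523 FPKM in shNAT10. The control libraries spanned the NAT10-KD range on both sides, and shCtrl replicate 2 was the lowest. The ratio per depth was 0.970 (95% interval 0.853 to 1.10), and the adjusted p without the filter was 0.98. ONECUT2 lies at chr18:57435685-57491297, and its counted transcript of 16121 bases is the longest of the 8.

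The factors were next set beside their paralogs, since related proteins can share binding sites. In the GATA family, GATA4 and not GATA6 was the most abundant member, at 9.94 ± 0.62 FPKM in shCtrl and 7.99 ± 0.47 FPKM in shNAT10. Of the 6 family genes 5 were tested, and 4 of these, GATA3, GATA4, GATA5 and GATA6, were called lower. None was called higher by limma, with 0 also at an unadjusted p under 0.05 and 0 by voom, a fit without GATA3. Over all tested genes 21.2% were called lower and 20.8% higher, and no test of a family or list as a set was run. Among the called members, GATA6 had a log2 fold change of -1.23, GATA3 of -0.51, GATA5 of -0.34 and GATA4 of -0.31. The calls of GATA4 and GATA5 were lost in TPM and with the length and GC correction, which left 2 calls. The share of GATA6 in the summed FPKM of the family went from a mean of 11.9% (11.2% to 13.1%) to 6.61% (5.26% to 7.42%), and that of GATA4 from 41.6% to 45.1%.

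**Figure D3:**
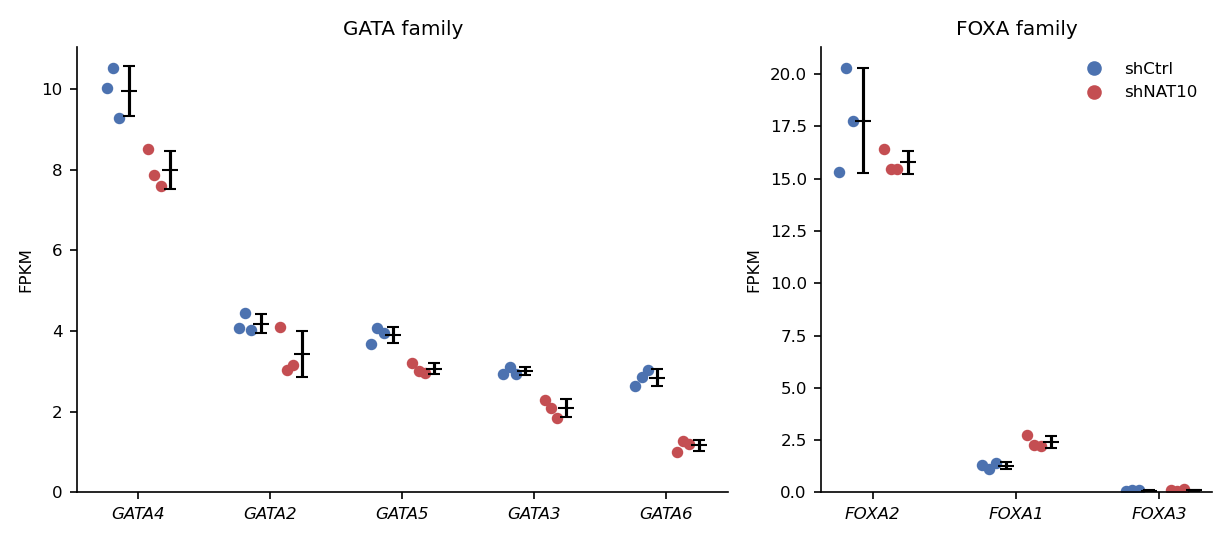
FPKM (y axis, linear) of the GATA and FOXA family genes in the 3 shCtrl and 3 shNAT10 libraries (points, replicates 1 to 3 from left to right), with the mean ± SD beside each group; GATA1, at 0 in 5 of 6 libraries, is left out. GATA4 is the highest GATA gene in both groups, GATA6 has the lowest mean of the 5 in both, and FOXA2 exceeds FOXA1 in every library.

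Among the 20 SOX genes, 7 were tested, 4 were called higher (SOX9, SOX12, SOX13 and SOX21) and 1 was called lower (SOX8). The shares over all tested genes were 20.8% higher and 21.2% lower. SOX9 was the most abundant, followed by SOX4 at 20.1 FPKM in shCtrl and 21.5 FPKM in shNAT10 (adjusted p = 0.39). SOX21 went from 1.89 ± 0.0064 FPKM to 4.54 ± 0.36 FPKM (log2 fold change 1.218 ± 0.10, adjusted p = 0.00026), and SOX8 from 2.56 ± 0.22 to 0.906 ± 0.16 FPKM (-1.41 ± 0.18, adjusted p = 0.0011). Both fold changes were farther from 0 than that of SOX9, whose share of the family sum was 43.9% in shCtrl and 41.8% in shNAT10. The same genes were called under the scalings tried, apart from SOX9 with quantile normalization.

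KLF5 was a minor member of its own family, at 0.413% of the summed FPKM of the 18 KLF genes in shCtrl and 0.634% in shNAT10. KLF10, a TGF-beta-induced gene, was the highest in shCtrl at 30.7 FPKM and fell to 19.96 FPKM in shNAT10 (log2 fold change -0.62 ± 0.072, adjusted p = 0.00083). KLF6 was the highest in shNAT10 and rose from 20.8 to 32.4 FPKM (0.63 ± 0.082, adjusted p = 0.0013). Of the 11 tested KLF genes 3 were called lower, KLF2 (-1.11 ± 0.23, adjusted p = 0.0084), KLF4 and KLF10, and 2 higher, KLF6 and KLF13. With the length and GC correction, 6 were called lower and 2 higher. Over all tested genes the shares were 21.2% lower and 20.8% higher, and the KLF counts are not a result about the family. ONECUT2 was likewise a minor member, at 4.98% and 5.14% of its family sum, since ONECUT3 held 94.2% in shCtrl at 10.4 FPKM and 94.7% in shNAT10 at 9.60 FPKM (log2 fold change -0.12, 95% confidence interval -0.36 to 0.13, adjusted p = 0.41).

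A wider list of 40 related factors of ducts, acini and islets showed how far the rest of the circuit was present. Of these, 29 did not pass the filter. PTF1A, the acinar master factor, was listed at 0 in every library. Of the 11 tested, 5 were called lower, namely GATA4, HHEX, KLF4, ELF3 and MYRF, and 6 were not called. None was called higher by limma, with 1 at an unadjusted p under 0.05 and 0 by voom on the same genes. The median log2 fold change of the 11 was -0.31, against -0.011 over all tested genes, of which 21.2% were called lower and 20.8% higher. TEAD1, the most abundant of the list at 27.8 FPKM, was not called (0.30 ± 0.25, adjusted p = 0.37), and its lowest value, 17.4 FPKM, belonged to shCtrl replicate 2. ELF3, an epithelial ETS factor, fell from 10.8 to 6.04 FPKM (-0.82 ± 0.092, adjusted p = 0.00072), and MYRF, a membrane-bound factor of epithelial and glial cells, from 2.52 to 1.20 FPKM (-1.01 ± 0.14, adjusted p = 0.0017). In TPM 4 were called lower, and without shNAT10 replicate 3 the count was 3. With the length and GC correction 5 were called lower, with HES1 in place of GATA4, and MNX1 was called higher. The median under that correction was -0.16, against -0.0021 over all genes.

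**Figure D4:**
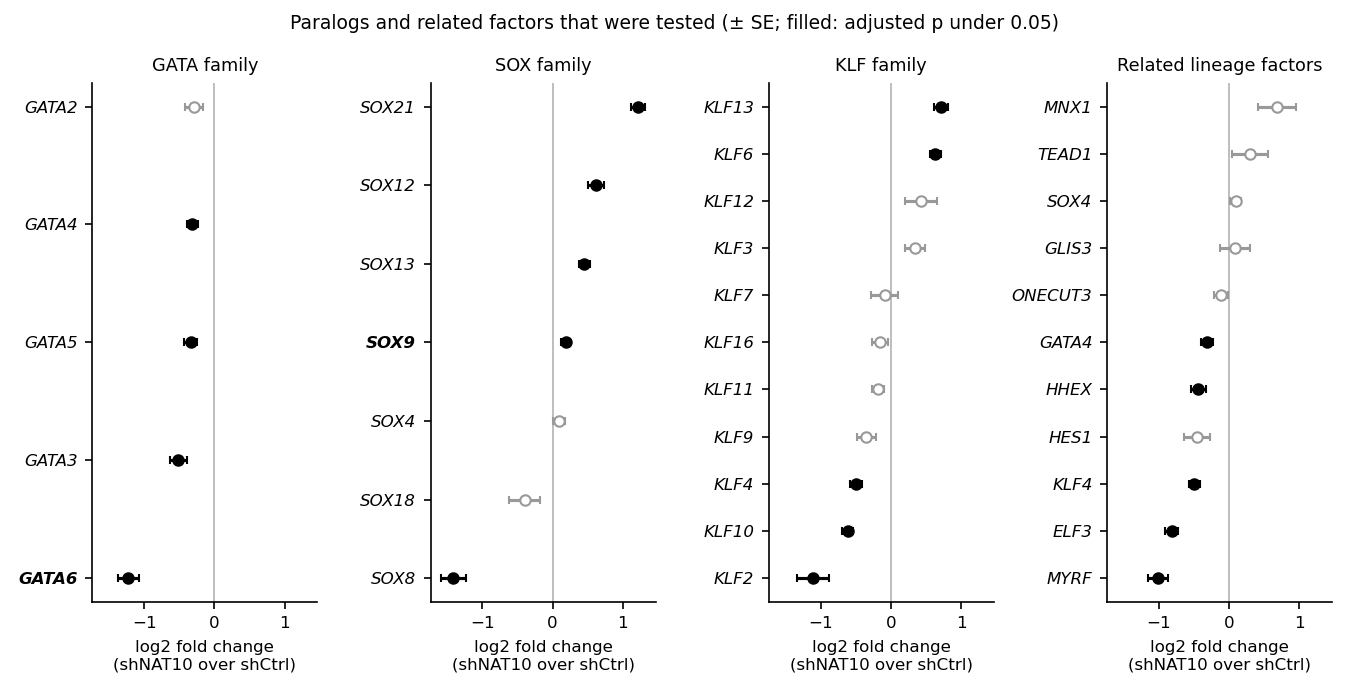
log2 fold change of shNAT10 over shCtrl (x axis) with its SE for each tested gene of the GATA, SOX and KLF families and of the related lineage factors. Points are filled at a limma adjusted p under 0.05, and GATA6 and SOX9, the only ones of the 8 factors shown, are in bold. GATA6 is the lowest of 5 GATA genes, and the SOX and KLF families hold calls in both directions.

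Identity was also read from the genes these factors are known to accompany. PANC-1 cells expressed the simple-epithelial keratins at very high levels, with KRT8 at 1739 FPKM, KRT18 at 1131 FPKM and KRT19 at 306 FPKM in shCtrl, while the duct channel CFTR was listed at 0 in every library. Of 12 ductal markers 8 were tested. The 4 keratins KRT7, KRT8, KRT18 and KRT19 were called lower, EPCAM, an epithelial adhesion molecule, was called higher, and 3 were not called. These 3 had means in shCtrl and shNAT10 of 43.5 and 44.6 FPKM (CLDN4), 4.24 and 5.31 FPKM (CDH1) and 3.98 and 4.49 FPKM (MUC1). None of their means was lower in shNAT10. In the fit as a whole, a lower call was made for 21.2% of genes and a higher call for 20.8%. The ductal list was not tested as a set. KRT8 fell to 766 FPKM (log2 fold change -1.18 ± 0.11, adjusted p = 0.00036), and EPCAM rose from 4.87 to 22.6 FPKM (2.20 ± 0.13, adjusted p = 6.9e-05). The summed FPKM of the ductal markers was 2836 to 3807 in shCtrl and 1544 to 1730 in shNAT10, with the highest sum in shCtrl replicate 2. KRT8, KRT18 and KRT19 made up most of the sum in both groups, so it stands for these keratins and not for the list.

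Genes of the classical PDAC subtype, the subtype marked by GATA6, were mostly under the filter, with 3 of 24 tested. TFF3, a secreted trefoil peptide, and CEACAM6, an adhesion molecule, reached 1 FPKM in the 3 shCtrl libraries only and so entered the test through the group where they are high. Their direction follows from that, and no count or median of the list is read. TFF3 was at 1.14, 1.25 and 1.99 FPKM in shCtrl and at 0.570, 0.510 and 0.510 FPKM in shNAT10, and CEACAM6 had means of 1.32 and 0.824 FPKM. AGR2, a secretory-pathway disulfide isomerase and by far the most abundant, was at 162 and 142 FPKM (log2 fold change -0.19, adjusted p = 0.11). With any 1 of the shCtrl libraries left out it was the only one of the 3 still in the test, and it was called without shCtrl replicate 1 (-0.25, adjusted p = 0.045). Of 25 basal-like genes 8 were tested, 4 were called higher (AREG, CTSV, KRT15 and SLC2A1), 2 were called lower (KRT7 and TNS4) and 2 were not called. Their median was 0.25, against -0.011 over all tested genes. Over all tested genes 20.8% were called higher and 21.2% lower, and no test of the list as a set was run. AREG, an EGFR ligand, rose from 1.31 to 8.05 FPKM (2.53 ± 0.11, adjusted p = 4.4e-05), and SLC2A1, the glucose transporter with the highest level of the list, from 41.6 to 53.9 FPKM (0.37 ± 0.063, adjusted p = 0.0037).

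Markers of other cell types were low or absent, with a few exceptions. Of 15 acinar markers 0 were tested, 8 were at 0 in all libraries, and their summed FPKM was 0.0850 to 0.444 in shCtrl and 0.273 to 0.455 in shNAT10. The sums of 8 hepatocyte markers were 0.529 to 0.732 and 0.788 to 1.45, and those of 6 endothelial markers were 0.470 to 0.651 and 0.305 to 0.409, again with 0 tested in each list. ALB and APOB were highest in shNAT10 replicate 2, at 20 and 47 reads, and had 0 reads in shNAT10 replicate 3. SERPINA1 had 24 reads over the shCtrl libraries and 57 over the shNAT10 libraries. INS, GCG and 6 other endocrine markers of 14 were at 0. The 3 tested endocrine genes were SYP, the highest of the list in shCtrl, which was called lower (5.24 to 3.23 FPKM), SCG2, which was called higher, and CHGB, the highest in shNAT10, which was not called (3.65 and 4.05 FPKM), and the list summed to 10.4 to 12.3 and 9.63 to 10.5 FPKM. Of 8 immune markers only CD14 was tested, and it was called lower (2.53 to 1.46 FPKM; sums 2.76 to 3.36 and 1.71 to 2.18), with CD3E at 0. Of 8 fibroblast markers 2 were tested. COL1A1 was called lower (31.1 to 19.2 FPKM), COL3A1, which reached 1 FPKM in the 3 shNAT10 libraries only and entered the test through them, had means of 0.776 and 1.96 FPKM, the sums were 29.6 to 34.7 and 19.3 to 22.9, and DCN and LUM were under 0.1 FPKM. The part of these genes in the changes of the 8 factors was not tested.

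For each tested factor, the genes with the most similar profile over the 6 libraries were found among 12891 named genes, by the root mean square difference of their centred log2 values. For GATA6 these were NOC3L (0.055), ELF3-AS1 (0.064) and RRM2 (0.066), with log2 fold changes from -1.21 to -1.20. For FOXA1 they were BCAS1 (0.052), NOTCH1 (0.071) and AFG1L (0.071), with log2 fold changes from 0.90 to 0.93. For SOX9 they were ADCY6 (0.011), CES2 (0.013) and PSMD1 (0.018), and for FOXA2 they were SMARCB1 (0.021), TRIM7 (0.024) and COX7B (0.025). The measure favours genes with the same small change, so the values of SOX9 and FOXA2 are lower than those of GATA6 and FOXA1.

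acRIP-seq peaks were then looked up for the 8 genes. A peak in shCtrl was listed for 1 of the 8, KLF5, and a peak in shNAT10 for 4, SOX9, GATA6, KLF5 and ONECUT2. HNF4A, PDX1, FOXA1 and FOXA2 had none in either list. Over all 19817 protein-coding genes, 37.0% had a peak in the shCtrl list and 35.8% in the shNAT10 list. With 1 list per group and no replicates, no test of these counts is possible. The share with a peak rose with expression, from 11.3% of genes under 0.1 FPKM to 66.3% of genes at 10 FPKM or more in shCtrl. SOX9 and FOXA2, both in this highest class, were without a peak in shCtrl, and FOXA2 also in shNAT10, where the share was 65.0%. At 1 to under 10 FPKM, the class of GATA6 and FOXA1, it was 45.2% in shCtrl and 43.4% in shNAT10. At 0.1 to under 1 FPKM, the share was 21.6% in shCtrl and 23.7% in shNAT10. KLF5 and ONECUT2 were in this class in both groups, and PDX1 was in it in shCtrl. Under 0.1 FPKM, the class of HNF4A in both groups and of PDX1 in shNAT10, it was 11.3% and 10.8%.

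The peaks on coding sequence are printed below, as the stretches that the peak lists give as enriched in the IP. They were read 5′ to 3′ from GENCODE v29 transcripts by their GRCh38 positions on the plus strand. Capitals mark each match to CNNCNNCNNCNN, a C followed by any 2 bases in 4 repeats, a stretched form of the C-rich context in which ac4C is often found. The GATA6 peak is spliced, and its matches were searched on the joined exons, which are given as 4 lines.
KLF5 shCtrl peak chr13:73062413-73062532: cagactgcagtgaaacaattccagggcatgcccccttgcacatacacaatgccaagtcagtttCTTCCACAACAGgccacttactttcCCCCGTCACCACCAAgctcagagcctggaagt
KLF5 shNAT10 peak chr13:73062053-73062263: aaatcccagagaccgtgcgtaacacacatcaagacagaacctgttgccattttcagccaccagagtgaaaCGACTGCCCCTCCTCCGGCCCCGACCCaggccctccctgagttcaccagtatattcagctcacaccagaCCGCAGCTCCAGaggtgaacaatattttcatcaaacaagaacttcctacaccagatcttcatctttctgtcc
SOX9 shNAT10 peak chr17:72121616-72121795: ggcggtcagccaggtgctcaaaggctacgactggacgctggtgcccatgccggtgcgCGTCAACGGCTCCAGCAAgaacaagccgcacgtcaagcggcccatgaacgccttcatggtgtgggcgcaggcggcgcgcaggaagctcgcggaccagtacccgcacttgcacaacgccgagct
GATA6 shNAT10 peak, exon 2, chr18:22172247-22172279: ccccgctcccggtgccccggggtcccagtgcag
GATA6 shNAT10 peak, exon 3, chr18:22176955-22177121: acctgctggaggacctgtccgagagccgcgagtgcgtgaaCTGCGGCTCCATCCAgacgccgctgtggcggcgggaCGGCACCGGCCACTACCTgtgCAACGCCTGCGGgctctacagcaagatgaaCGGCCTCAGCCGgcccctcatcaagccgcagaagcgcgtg
GATA6 shNAT10 peak, exon 4, chr18:22181453-22181578: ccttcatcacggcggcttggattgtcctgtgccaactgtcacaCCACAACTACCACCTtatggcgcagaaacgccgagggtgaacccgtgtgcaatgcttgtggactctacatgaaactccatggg
GATA6 shNAT10 peak, exon 5, chr18:22182757-22182789: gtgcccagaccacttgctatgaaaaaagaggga

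KLF5 was the only member with a peak in both groups, and the 2 peaks did not overlap. Both lay in exon 2 of 4 in the coding sequence, the shNAT10 peak at codons 152 to 222 and the shCtrl peak at codons 272 to 311 of 457, with 149 bases between them. The shCtrl peak was enriched 18.0-fold in the IP, with a p-value of 0.0021, and 98.2% of the shCtrl list had a lower p. The shNAT10 peak had a fold enrichment of 1790, above 95.7% of its list, and a p-value listed as 0. Over all peaks, 25.6% of the shCtrl list and 27.4% of the shNAT10 list overlapped a peak of the other list by at least 1 base on the same strand. For the 8 factors it was 0 of 1 shCtrl peaks. The shNAT10 peaks of SOX9, GATA6 and ONECUT2 had no shCtrl peak on the same gene.

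The SOX9 peak was present in the shNAT10 list only, in exon 1, over 180 bases at codons 75 to 135 of 509. It had a p-value of 1e-191 but a fold enrichment of 9.43, above 20.9% of the list. Its last part lies in the HMG box, the DNA-binding domain of SOX proteins. The GATA6 peak, also in the shNAT10 list only, ran over 359 spliced bases from exon 2 to exon 5 of 7, at codons 368 to 487 of 595, and it covers the zinc fingers with which GATA factors bind DNA. Its fold enrichment was 247, above 75.8% of the list, with a p-value of 7.9e-67. GATA6 had a peak in the group with 234 reads over its RNA-seq libraries and none in the group with 660. The ONECUT2 peak of 150 bases, at chr18:57478928-57479077, was the exception in place. It lay in the 3′ UTR, 2205 bases after the stop codon of a UTR of 14574 bases, with a fold enrichment of 1720 and a p-value listed as 0. Of the shNAT10 list, 19.4% had a p-value of 0. The reads behind each peak and the background in each IP library are not analysed here. The fold enrichments are ranked within their own list and are not compared between the lists.

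The 4 peaks on coding sequence were rich in C, at 35.0% and 35.1% for KLF5, 33.3% for SOX9 and 33.4% for GATA6, which was more than in 84.8% to 88.8% of coding windows of the same length. The repeat matched 3 and 7 times in the KLF5 peaks, 3 times in the SOX9 peak and 9 times in the GATA6 peak. On the opposite strand it matched 0 times in both KLF5 peaks, 5 times in the SOX9 peak and 6 times in the GATA6 peak. Of all coding windows of the lengths of these peaks, between 44.4% and 74.3% held at least 1 match and between 44.9% and 78.6% held 1 on the opposite strand, so that a match is common in any coding sequence of this length. Among the 40 related factors 8 had a peak in shCtrl and 8 in shNAT10, and 6 had one in both, among them SOX4, KLF4, ELF3 and TEAD1.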

How the data were processed

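RNA-seq (3 shCtrl, 3 shNAT10 libraries) and acRIP-seq of PANC-1 cells were grouped by their labels. Per the labels' processing notes, reads were handled with HISAT2 2, HTSeq 0.11.0 and DESeq2 1.22.2 on GRCh38, and the authors deposited FPKM per gene. The deposited peak lists hold a p-value and a fold enrichment (ratio of IP over input) per peak, and the peak caller is not given in the sources used here. The FPKM length was taken as that of the longest GENCODE v29 transcript. Where this gave no whole reads, another transcript length of the gene that did was used instead. With the lengths so chosen, 98.1% of values came out as whole reads within 0.01.

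log2(FPKM + 0.1) of genes with at least 1 FPKM in at least 3 libraries was fitted with limma 3.58.1 (R 4.3.3) with a mean-variance trend, in the direction shNAT10 minus shCtrl, with Benjamini-Hochberg adjustment over all 12982 genes. Fold changes on this scale understate those of low genes. Exact tests and intervals used SciPy 1.17.1, overlaps bedtools 2.31.1. The fit and the overlap were tested on simulated data. Named are the 8 factors, NAT10, the most abundant gene of each list, genes called beyond 1, and the 3 nearest profiles, and other genes were named after their values were seen. The 8 factors and the lists (paralogs, related factors, subtype genes, cell type markers) were chosen with earlier results of these data known. Alternatives were a pseudocount of 1, no filter, a minimum of 5 FPKM, quantile normalization, median centring, TPM, a replicate block, no trend, voom on recovered reads with TMM factors, each library left out, the upper 50% of peaks, and a reciprocal overlap of 50%. Chosen after seeing the data were voom on genes with at least 10 reads and a length and GC correction.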

Additional observations from a re-analysis of the deposited data

How the results depend on the processing

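GATA6 and FOXA1 kept their direction and call in all 16 alternatives in which each could be tested, and at a minimum of 5 FPKM neither was left in the fit. The number of factors called lower, 1, was 0 at a minimum of 5 FPKM, 2 with voom on genes with at least 10 reads (GATA6 and PDX1), and 1 to 2 when a library was left out. The number called higher, 2, was 1 at a minimum of 5 FPKM, without the filter, without the trend, with quantile normalization and with voom on genes with at least 10 reads, and 1 to 2 with a library left out. Apart from the minimum of 5 FPKM, where FOXA1 was not fitted, the lost call was that of SOX9. FOXA2 changed sign with the length and GC correction, at 0.0036 (adjusted p = 0.96). The same-numbered libraries of the groups did not deviate together (correlations -0.043, 0.064 and 0.107 over genes), and with the replicate block 1 factor was called higher and 1 lower.

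Related factors called lower, 5, numbered 3 at a minimum of 5 FPKM, 10 with voom on genes with at least 10 reads, and 3 to 6 with a library left out. Those called higher, 0, numbered 1 with the length and GC correction, without the filter and with voom on genes with at least 10 reads, and 0 to 1 with a library left out. The number of classical genes called lower is not read, because TFF3 and CEACAM6 entered the test through the shCtrl libraries. Without any 1 of these libraries TFF3 no longer reached the filter, and without shCtrl replicate 1 AGR2 was called. Basal-like genes called lower, 2, numbered 1 at a minimum of 5 FPKM and 2 to 3 with a library left out. Basal-like genes called higher, 4, numbered 3 at a minimum of 5 FPKM, without the filter and with both voom fits. With a library left out they numbered 3 to 4. SLC2A1 was not part of the voom fits. In the upper 50% of peaks by fold enrichment or by p-value, 0 factors had a peak in shCtrl and 3 in shNAT10. The cause of these changes was not tested, beyond the smaller number of genes at 5 FPKM. Factors under 1 FPKM rest on at most 218 reads per library, and for PDX1 and HNF4A on at most 11, which limits what can be said of them.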

Other observations

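SOX2, the paralog of SOX9 that marks pluripotent and foregut cells, was under the filter and was singled out after its values were seen. It had 20 reads over the 3 shCtrl libraries and 135 over the 3 shNAT10 libraries, at means of 0.132 and 1.01 FPKM, and the groups did not overlap. limma without the filter gave a log2 fold change of 2.26 (adjusted p = 0.0027), and voom on genes with at least 10 reads 2.90 ± 0.33 (SE; adjusted p = 0.00016).

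Of the 29 related factors under the filter, 14 had at least 10 reads, and voom on these reads called 5 lower, PROX1, NR5A2, ISL1, MEIS1 and CDX2, and 1 higher, BHLHA15. These names were also chosen after seeing the values. The share called over all genes of that fit is not given, so these counts are not a result about the list. NR5A2, a nuclear receptor of acinar cells, had 323 reads in shCtrl and 178 in shNAT10 (log2 fold change -0.62 ± 0.17, adjusted p = 0.019), and CDX2, an intestinal homeobox factor, had 119 and 47 (-1.03 ± 0.32, adjusted p = 0.035). BHLHA15, a factor of secretory acinar cells, had 3 and 19 reads (adjusted p = 0.022). Without the filter, limma called BHLHA15 (adjusted p = 0.033) and none of the 5 that voom called lower.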
